A study of Mus musculus with 18 samples.

Results

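The genes described here are 37 mouse genes of ribosome biogenesis and the nucleolus, taken as the rows of the 2 deposited gene tables whose symbol equals one of 37 names. Each name matched 1 row in each table, out of 25628 rows in the table of experiment 1 and 26903 rows in that of experiment 2. The cells were TgSpi1 erythroleukemic cells of line #763, leukemic erythroid cells from bone marrow that overexpress the transcription factor SPI1 (PU.1) and were grown with erythropoietin (EPO). They carry a hairpin RNA (shRNA) against Spi1 that doxycycline switches on. In experiment 1, polyA RNA was sequenced from cells without doxycycline (Exp1_NoDox) and after 48 h of doxycycline (Exp1_Dox). In experiment 2, cells without doxycycline or after 48 h of it were also given the vehicle DMSO or 3 µM entinostat, an inhibitor of the histone deacetylases HDAC1 and HDAC3, for 6 h. Its 4 groups are NoDox_DMSO and NoDox_Entinostat, without doxycycline, and Dox_DMSO and Dox_Entinostat, with it. Every group of both experiments holds 3 libraries, labelled as biological replicates. All libraries come from 1 cell line, and no group with a control hairpin was analysed here, so an effect of doxycycline itself and the loss of Spi1 RNA cannot be told apart. The doxycycline dose and the promoter of the Spi1 transgene are not given in the sources used here.

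Ribosomes are built in the nucleolus. RNA polymerase I transcribes the ribosomal DNA into 1 long precursor RNA, small nucleolar ribonucleoproteins (snoRNPs) modify it and guide its cleavage, and a large number of assembly factors fold and trim it into the small and the large subunit while ribosomal proteins are added. Dividing blood cell precursors, red cell precursors among them, make many ribosomes, and the transcription factor MYC is a known activator of many of these genes. The 37 genes were described in 5 groups by role: 4 nucleolar scaffold and shuttling proteins, 3 subunits of RNA polymerase I, 5 snoRNP proteins, 12 assembly factors of the small subunit and 13 of the large subunit.

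The libraries held 82674499 to 113804574 counted reads in experiment 1 and 43116322 to 48855905 in experiment 2. Spi1, the target of the hairpin, lay at 379, 455 and 459 CPM in the Exp1_NoDox libraries and at 133, 125 and 132 CPM in the Exp1_Dox libraries, where CPM (the usual depth-normalised read count) is scaled between libraries by TMM. In experiment 2 it lay at 199.6, 259 and 251 CPM in the NoDox_DMSO libraries and at 59.5, 126 and 105 CPM in the Dox_DMSO libraries. It had 221, 480 and 482 CPM in the NoDox_Entinostat libraries and 98.5, 162 and 132 CPM in the Dox_Entinostat libraries. So in both experiments every library with doxycycline was below every library without it. For entinostat without doxycycline, Spi1 had a log2 fold change of 0.74 (edgeR quasi-likelihood test, adjusted p = 0.0813). With same-numbered libraries as blocks, that test gave 0.66 (adjusted p = 0.00849). Of 7 lists of cell type markers, the 11 erythroid genes summed to 3480 to 7900 CPM per library, while the markers of macrophages, of neutrophils, of B cells, of T and NK cells and of stroma each summed to at most 16 CPM. The 3 megakaryocyte markers summed to 30.6 to 67 CPM in NoDox_DMSO and 80.4 to 123 CPM in NoDox_Entinostat, and to 30 to 44.7 CPM in Dox_DMSO and 65.5 to 126 CPM in Dox_Entinostat; 2 of the 3 rose with entinostat without doxycycline and all 3 with it. The macrophage markers were highest in NoDox_Entinostat, at 12.1 to 16 CPM against 3.16 to 3.64 CPM in NoDox_DMSO. The erythroid markers were highest in Dox_Entinostat, at 5900 to 7900 CPM. They held 3480 to 3640 CPM in NoDox_DMSO, 4680 to 5630 CPM in Dox_DMSO and 3670 to 4140 CPM in NoDox_Entinostat. Single erythroid genes moved both ways with entinostat, 4 of 11 rising and 3 falling without doxycycline and 4 rising and 4 falling with it. Doxycycline raised 4 of 11 in experiment 1, 5 in DMSO and 6 in entinostat, and lowered 0. Of all genes, 5.26%, 3.77% and 8.96% rose there. The part of these markers in the results below was not tested. In bulk samples such as these, fewer cells of a type and less RNA per cell cannot be told apart. In experiment 2, the first Dox_DMSO and the first NoDox_Entinostat library stood apart from the others of their groups, with root mean square log2 deviations from the group mean of 0.522 and 0.506 against 0.22 to 0.345 in the other 10 libraries. Both carry replicate number 1, and their deviations from the group means correlated at 0.78. Results that rest on these 2 libraries are given with and without them.

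Levels per kilobase of transcript, which allow genes to be compared with each other, spanned a wide range in untreated cells. Without doxycycline and in DMSO, Npm1, which encodes the abundant nucleolar chaperone nucleophosmin, was highest at 2755 ± 249 RPKM (CPM per kilobase of transcript, mean ± SD, n = 3). By the transcript lengths used, the 3 core proteins of the box C/D snoRNPs followed, with Nop58 at 501 ± 34.8, the methyltransferase Fbl (fibrillarin) at 369.7 ± 33.3 and Nop56 at 360.2 ± 27.9 RPKM. The last 2 do not differ beyond their spread. At the low end stood Utp20, a very large scaffold protein of the small subunit precursor, at 9.77 ± 2.31 RPKM and Polr1a, the largest RNA polymerase I subunit, at 12.1 ± 2.53 RPKM. The other 31 genes lay between 18.0 (Rrp1b) and 242 RPKM (Gnl3). These levels use 1 annotated transcript per gene. The transcripts used for Ncl and Wdr12 have 8202 and 10012 bases. A shorter transcript would give each a higher level and place, so the 239 RPKM of Ncl and the 38.1 of Wdr12 are uncertain. Npm1 has many near-identical processed copies in the genome, so its level is uncertain too.

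**Figure D1:**
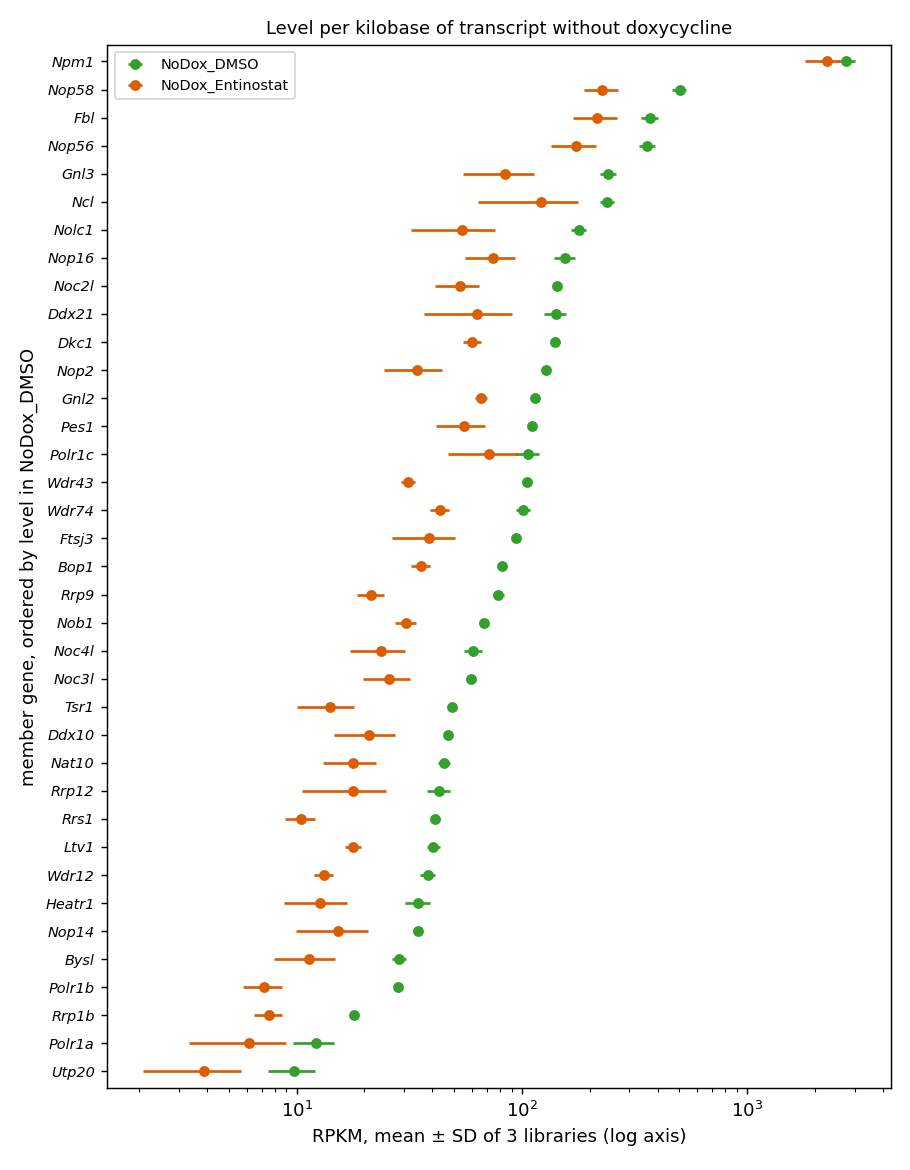
Level of each of the 37 genes in RPKM (log axis; mean and SD of 3 libraries) in NoDox_DMSO and NoDox_Entinostat, ordered by the level in NoDox_DMSO. Every entinostat mean lies to the left of its DMSO mean. Npm1 was highest and Utp20 lowest in both groups, while genes between them changed places, such as Polr1c from rank 15 to 8 and Nolc1 from 7 to 13.

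Entinostat lowered most of the 37 genes within 6 h. Without doxycycline, 33 of 37 fell and none rose at an adjusted p under 0.05 (edgeR quasi-likelihood test, Benjamini-Hochberg adjustment over all 15051 genes tested), while 16.9% of all genes fell and 30.3% rose. The fitted levels of the 33 were between 25.4% (Rrs1) and 58.4% (Fbl) of those in NoDox_DMSO. The median log2 fold change was -1.23 over the 37 genes and 0.07 over all genes tested. In 35 of the 37, every NoDox_Entinostat library lay below every NoDox_DMSO library, which held for 26.4% of all genes. Summed over the 37 genes, the NoDox_DMSO libraries held 15700 to 16300 CPM and the NoDox_Entinostat libraries 8470 to 8980 CPM, with no overlap. DESeq2 and limma-voom each called 35 of the 37 lower and none higher, where 2897 and 2658 of 15051 genes fell and 4729 and 4475 rose. These are relative levels: total RNA per cell was not measured, and with scaling by library size alone the median over all genes was 0.32, the median of the 37 genes -0.98, and 31 fell. In that fit 1233 of 15051 genes fell and 5417 rose.

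**Figure D2:**
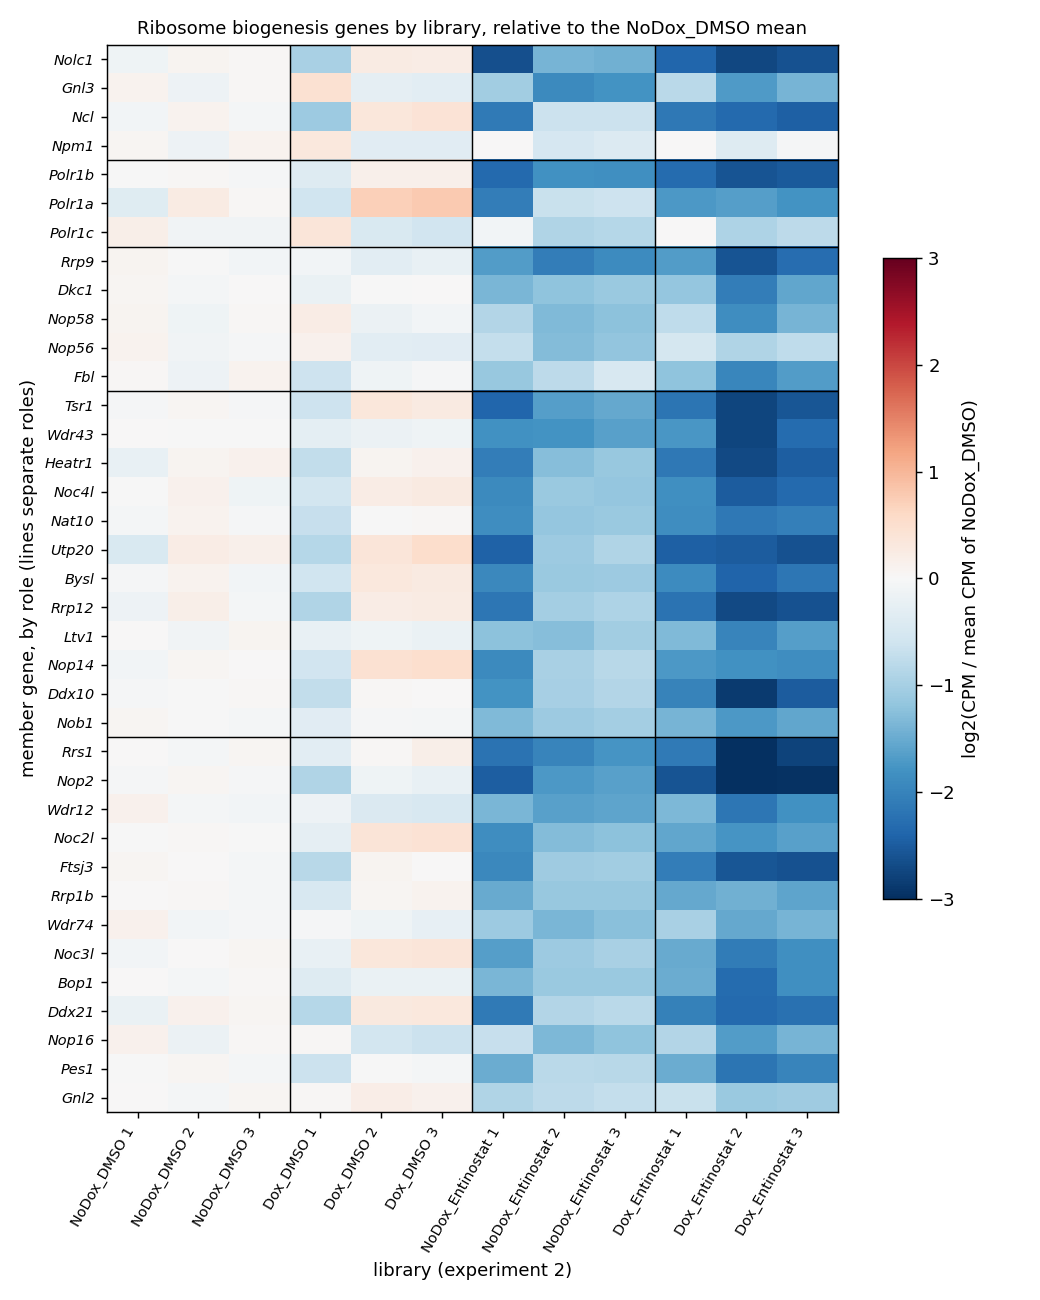
Level of each of the 37 genes in the 12 libraries of experiment 2, as log2 of its CPM over the mean CPM of NoDox_DMSO (colours end at -3 and 3), with genes grouped by role and libraries by group. The 6 entinostat columns are blue for nearly every gene, Npm1 and Polr1c being the palest rows, and the first Dox_DMSO and first NoDox_Entinostat columns differ from the other columns of their groups.

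Among the nucleolar scaffold and shuttling proteins, 2 of 4 genes fell. Gnl3, which encodes nucleostemin, a GTP-binding nucleolar protein of proliferating cells (ENSMUSG00000042354, chromosome 14, 31012433 to 31019152, minus strand), lay at 506, 427 and 479 CPM in the NoDox_DMSO libraries and at 228, 124 and 137 CPM in the NoDox_Entinostat libraries. Its log2 fold change was -1.53 ± 0.30 (SE, n = 3 against 3; adjusted p = 0.00118), a fitted 34.6% of the DMSO level, and the groups did not overlap. Nolc1, whose product Nopp140 is a chaperone of snoRNPs (ENSMUSG00000015176, chromosome 19, 46075863 to 46085530, plus strand), was at 593, 692 and 663 CPM in the NoDox_DMSO libraries and at 105, 245 and 241 CPM in the NoDox_Entinostat libraries. It fell by 1.72 ± 0.35 on the log2 scale (adjusted p = 0.00142), and its lowest value was in the first NoDox_Entinostat library. Ncl, encoding nucleolin, an abundant nucleolar RNA-binding protein, had 1868, 2119 and 1897 CPM in the NoDox_DMSO libraries and 452, 1263 and 1264 CPM in the NoDox_Entinostat libraries. Its groups did not overlap, but its log2 fold change of -0.98 ± 0.41 (SE, n = 3 against 3; adjusted p = 0.0651) did not pass the threshold, and the first entinostat library was far below the other two. Npm1 was the member whose level differed least, with 4651, 4038 and 4809 CPM against 4504, 3153 and 3388 CPM, overlapping groups and a log2 fold change of -0.29 ± 0.27 (SE, n = 3 against 3; adjusted p = 0.404). Ncl, Npm1, Polr1c, Fbl and Wdr74 are named beside the rule for named genes, after their values were seen.

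Among the RNA polymerase I subunits, 1 of 3 passed the test. Polr1b, the second-largest subunit (ENSMUSG00000027395, chromosome 2, 129100995 to 129126594, plus strand), had 112, 117 and 111 CPM in the NoDox_DMSO libraries and 22.4, 32.2 and 31.7 CPM in the NoDox_Entinostat libraries. Its log2 fold change of -1.98 ± 0.19 (SE, n = 3 against 3; adjusted p = 7.96e-06) left a fitted 25.4% of the DMSO level, with no overlap of the groups. Polr1a (ENSMUSG00000049553, chromosome 6, 71909053 to 71984935, plus strand) stood at 87.1, 133 and 115 CPM in DMSO and at 26.7, 70.8 and 72.9 CPM in entinostat. All 3 entinostat values of Polr1a were below all 3 DMSO values, and its log2 fold change of -0.98 ± 0.38 (SE, n = 3 against 3; adjusted p = 0.0504) lay just beyond the threshold. Polr1c, a subunit that RNA polymerases I and III share, had a log2 fold change of -0.57 ± 0.31 (SE, n = 3 against 3; adjusted p = 0.156). Its first entinostat library, at 131 CPM, lay within the DMSO range of 158, 130.1 and 129.8 CPM, while the other 2 were below it.

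All 5 snoRNP proteins fell. Rrp9, a WD-repeat protein of the U3 snoRNP, which is needed for the cuts that free the small subunit RNA (ENSMUSG00000041506, chromosome 9, 106475963 to 106485424, plus strand), lay at 132, 124 and 118 CPM in the NoDox_DMSO libraries and at 38.8, 29.8 and 33.7 CPM in the NoDox_Entinostat libraries. The log2 fold change was -1.87 ± 0.21 (SE, n = 3 against 3; adjusted p = 2.23e-05), the largest of the snoRNP group, and the groups were far apart. Dkc1, the pseudouridine synthase dyskerin of the box H/ACA snoRNPs and of telomerase (ENSMUSG00000031403, chromosome X, 75095854 to 75109777, plus strand), was at 409.9, 378 and 395 CPM in the NoDox_DMSO libraries and at 153, 172 and 183 CPM in the NoDox_Entinostat libraries. It fell by 1.22 ± 0.21 on the log2 scale (adjusted p = 0.000489) with a narrow spread in both groups. The box C/D proteins Nop58, Nop56 and Fbl had log2 fold changes of -1.14, -1.05 and -0.78, so the fall was smallest in Fbl. The kit used does not keep the strand of the RNA, and Rrp9 and Dkc1 overlap the coding genes Parp3 and Mpp1 on the opposite strand, so reads of the overlap cannot be assigned to one of them. The same holds for Gnl3, Nop56, Heatr1, Bysl, Tsr1, Bop1, Pes1, Wdr12, Rrp1b, Noc2l and Gnl2, which each overlap a coding gene on the opposite strand.

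All 12 assembly factors of the small subunit fell, with log2 fold changes from -1.81 (Tsr1, a GTPase-like late factor) to -1.14 (Nob1) and a median of -1.33. Nob1, the nuclease that makes the final cut at the end of the 18S RNA (ENSMUSG00000003848, chromosome 8, 107412486 to 107425051, minus strand), had 117, 111 and 107 CPM in the NoDox_DMSO libraries and 44.6, 52.8 and 54.9 CPM in the NoDox_Entinostat libraries. Its log2 fold change was -1.14 ± 0.16 (SE, n = 3 against 3; adjusted p = 8e-05), a small fall for this group but with one of the narrowest spreads. Wdr43, a subunit of the early complex that binds the precursor during its transcription (ENSMUSG00000041057, chromosome 17, 71615895 to 71659031, plus strand), fell from 366, 362 and 363 CPM in DMSO to 103, 105 and 117 CPM in entinostat. Its 3 libraries agreed closely in each group, and the log2 fold change was -1.75 ± 0.22 (SE, n = 3 against 3; adjusted p = 4.69e-05).

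All 13 assembly factors of the large subunit fell, from -1.98 for Rrs1 to -0.79 for Gnl2, a GTPase of large subunit precursors, with a median of -1.23. Rrs1, which helps bring the 5S ribonucleoprotein into the precursor (ENSMUSG00000061024, chromosome 1, 9545408 to 9547455, plus strand), had 85.3, 80.6 and 87.9 CPM in the NoDox_DMSO libraries and 18.4, 21.3 and 24.7 CPM in the NoDox_Entinostat libraries. It had the largest fall of all 37 genes without doxycycline, -1.98 ± 0.25 (SE, n = 3 against 3; adjusted p = 4.15e-05), and its groups were well apart. Nop2, a methyltransferase of the large subunit RNA and a long-known proliferation antigen (ENSMUSG00000038279, chromosome 6, 125131909 to 125144753, plus strand), was at 324, 348 and 325 CPM in the NoDox_DMSO libraries and at 59.8, 101 and 107 CPM in the NoDox_Entinostat libraries. Its log2 fold change was -1.90 ± 0.26 (SE, n = 3 against 3; adjusted p = 7.81e-05). The 3 proteins of the PeBoW complex, which is needed to process the large subunit precursor, fell together: Pes1 by 1.01, Bop1 by 1.19 and Wdr12 by 1.53 on the log2 scale, with adjusted p of 0.00434, 0.000303 and 8.89e-05.

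**Figure D3:**
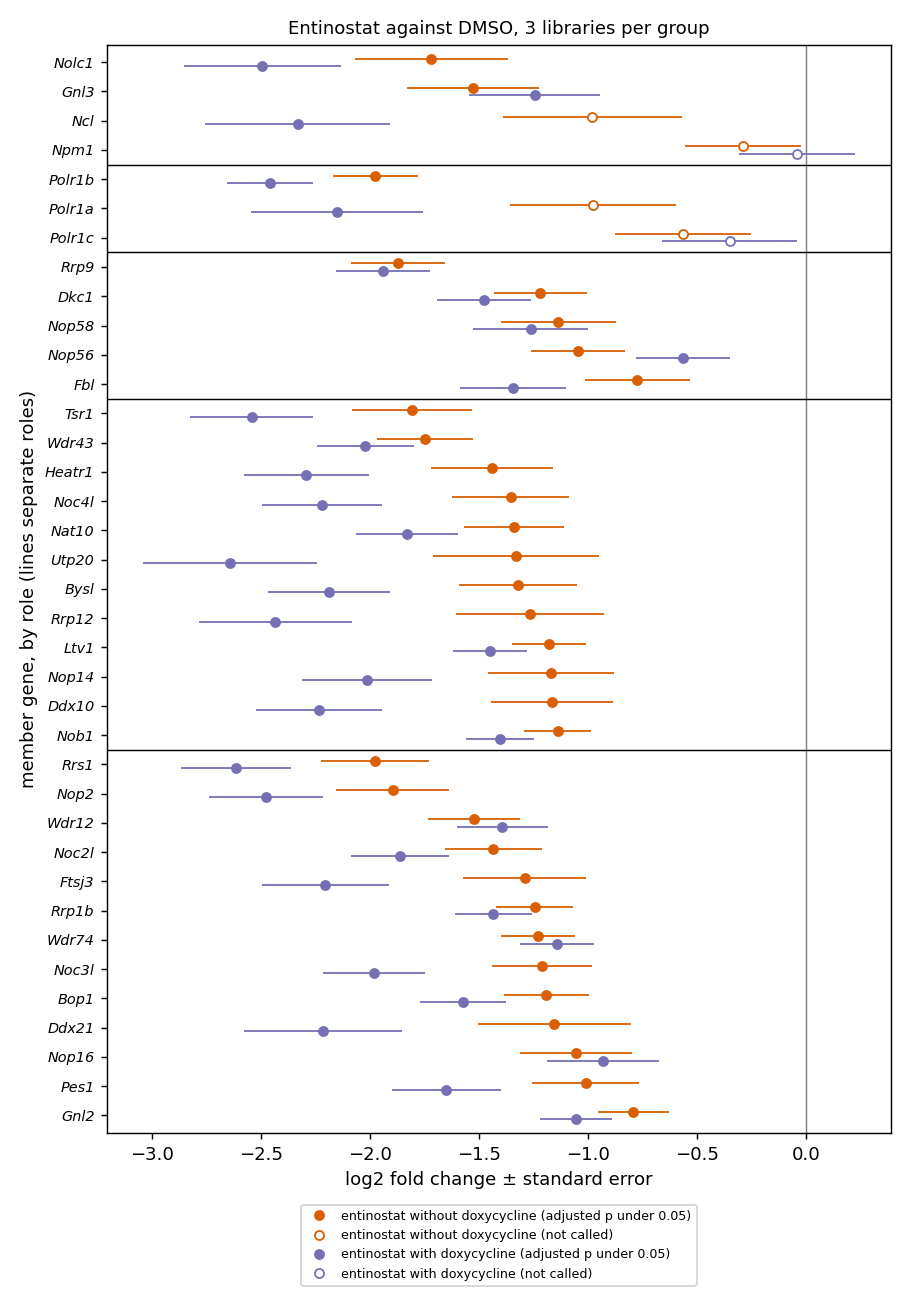
Log2 fold change ± SE of each gene for entinostat against DMSO without and with doxycycline, by role. Filled points passed an adjusted p under 0.05, which holds for 33 and 35 of the 37 genes; open points are Npm1 and Polr1c in both comparisons and Ncl and Polr1a without doxycycline.

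With doxycycline, entinostat was compared with DMSO in other libraries, Dox_Entinostat against Dox_DMSO, and 35 of 37 genes fell and none rose (edgeR, adjusted p under 0.05), while 29.9% of all genes fell and 33.9% rose. The median log2 fold change was -1.94 over the 37 genes and 0.14 over all genes. In 35 of 37 genes every Dox_Entinostat library lay below every Dox_DMSO library, which held for 30.5% of all genes. The median was -2.21 for the 12 small subunit factors and -2.15 for the RNA polymerase I subunits, against -1.65 for the large subunit factors and -1.35 for the snoRNP proteins. The roles differ in transcript length, and the snoRNP transcripts used have at most 2804 bases. In this comparison, members with transcripts over 2804 bases had a median of -2.21 and the shorter ones -1.40. The parts of role and of length in this order were not tested. Utp20 fell furthest (ENSMUSG00000004356, chromosome 10, 88746607 to 88826804, minus strand), from 47.9, 110.2 and 124 CPM in Dox_DMSO to 15.7, 15.2 and 14.1 CPM in Dox_Entinostat. Its log2 fold change of -2.64 ± 0.40 (SE, n = 3 against 3; adjusted p = 0.000134) left 16.0% of the DMSO level. Rrs1 followed with 67.4, 87.2 and 96.1 CPM against 19.3, 9.14 and 12.4 CPM and -2.62 ± 0.25 (SE, n = 3 against 3; adjusted p = 5.21e-06). The smallest called change was that of Nop56, at -0.57 ± 0.21 (adjusted p = 0.0341). Npm1 at -0.04 (adjusted p = 0.894) and Polr1c at -0.35 (adjusted p = 0.333) were again not called.

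The entinostat counts did not rest on the 2 libraries that stood apart. Without the first Dox_DMSO and the first NoDox_Entinostat library, all 37 genes fell without doxycycline, where 27.7% of all genes fell, and 35 fell with doxycycline, where 34.7% of all genes fell. For entinostat without doxycycline, that fit gave Npm1 -0.47 ± 0.16 (adjusted p = 0.0217) and Polr1c -0.89 ± 0.21 (adjusted p = 0.00256) on the log2 scale.

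Under doxycycline alone, the changes of the 37 genes were small. In experiment 1, 0 of 36 tested genes rose and 0 fell (edgeR, adjusted p under 0.05), where 5.26% of all genes rose and 8.36% fell. DESeq2 and limma-voom also called 0, and 1 of 36 had an unadjusted p under 0.05. The median log2 fold change was -0.04 over the 36 genes and 0.02 over all genes, and the extremes were -0.25 (Nop2) and 0.22 (Gnl2). In simulated counts for this comparison, 76% of genes set to a 2-fold fall were recovered, but only 6% of those set to a fold of 0.667. Only 50 of 13675 genes were changed at each simulated fold, fewer than were called in the data. The adjustment is stricter in that setting, so the shares may understate recovery in the data. Changes of that size could still be missed. Same-numbered libraries of experiment 1 deviated together (correlations of 0.829, 0.724 and 0.313), and once the fit allowed for these pairs as blocks, 4 genes rose and 13 fell, where 26.1% of all genes rose and 24.7% fell. The 4 that rose were Gnl2, Noc3l, Noc2l and Nop14, with blocked log2 fold changes of 0.22, 0.22, 0.21 and 0.10. The 13 that fell had blocked values from -0.25 (Nop2, adjusted p = 0.000179) to -0.11 (Heatr1), so the changes were small in either direction. Nop2 shows the size: it lay at 348, 282 and 302 CPM without and at 295, 229.8 and 258 CPM with doxycycline, lower in each same-numbered pair, with overlapping groups. The 37th gene, Wdr74, was at 0.00897 to 0.0407 CPM in experiment 1 and was not tested there. That is 1 to 4 raw counts per library in a table whose lowest value is 1, so the values lie at or near the floor and the lowest may stand for 0, while experiment 2 held it at 42.4 to 132 CPM; the cause was not tested.

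In DMSO, 0 of 37 genes rose and 0 fell with doxycycline (edgeR, adjusted p under 0.05), where 3.77% of all genes rose and 5.53% fell. DESeq2 and limma-voom called 0 as well, none had an unadjusted p under 0.05, and the replicate block left both counts at 0. The median was -0.08 over the 37 genes and 0.05 over all genes, and the extremes were -0.37 ± 0.25 for Nop2 and 0.43 ± 0.38 for Polr1a. Without the 2 libraries that stood apart, 5 genes rose (Ncl, Polr1a, Utp20, Nop14 and Noc2l), where 17.4% of all genes rose, and 1 fell (Nop16), where 13.9% fell. Ncl had 0.38 ± 0.13 (adjusted p = 0.045) and Nop16 -0.59 ± 0.18 (adjusted p = 0.024) on the log2 scale in that fit, and Dox_DMSO then rests on 2 libraries.

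**Figure D4:**
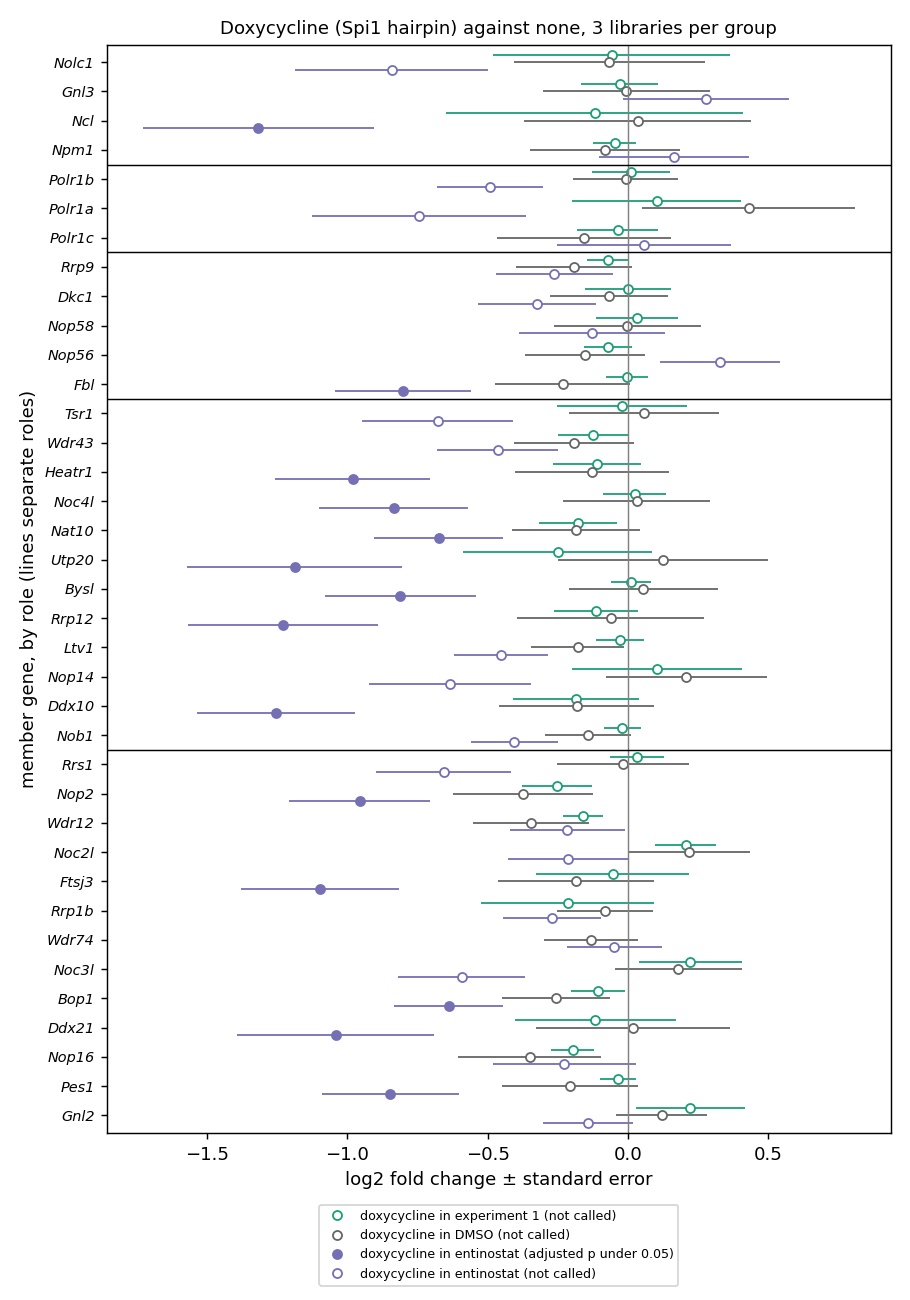
Log2 fold change ± SE of each gene for doxycycline against none in experiment 1, in DMSO and in entinostat, by role. The points of experiment 1 and of DMSO lie about 0 and are all open (not called), and 14 filled points, all below 0, belong to doxycycline in entinostat.

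In entinostat, cells with doxycycline had lower levels of 14 of the 37 genes than cells without it, and none was higher (edgeR, adjusted p under 0.05), while 15.1% of all genes fell and 8.96% rose. The median log2 fold change was -0.63 over the 37 genes and -0.08 over all genes. In 13 of 37 every Dox_Entinostat library lay below every NoDox_Entinostat library, which held for 19.4% of all genes. The 14 were 7 small subunit factors (Utp20, Heatr1, Noc4l, Nat10, Rrp12, Bysl and Ddx10), 5 large subunit factors (Bop1, Pes1, Nop2, Ftsj3 and Ddx21), Fbl and Ncl. Ncl (ENSMUSG00000026234, chromosome 1, 86344719 to 86359400, minus strand) had 452, 1263 and 1264 CPM in the NoDox_Entinostat libraries and 445, 392 and 358 CPM in the Dox_Entinostat libraries, a log2 fold change of -1.32 ± 0.41 (SE, n = 3 against 3; adjusted p = 0.0374). The 3 values with doxycycline were close together and just below the first NoDox_Entinostat library, while the other 2 libraries of that group were far higher. Ddx10, an RNA helicase of the small subunit precursor (ENSMUSG00000053289, chromosome 9, 53098635 to 53248053, minus strand), had 42.9, 74.2 and 80.2 CPM without and 36.6, 20.1 and 26.1 CPM with doxycycline, and -1.25 ± 0.28 (SE, n = 3 against 3; adjusted p = 0.0102). Its groups did not overlap, and again the first NoDox_Entinostat library was the lowest of its group.

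This count moved with single libraries. It was 0 without the third NoDox_Entinostat, the second Dox_Entinostat or the third Dox_Entinostat library and 1 without the second NoDox_Entinostat library. Of all genes, 766 to 1094 fell in the fits with 0 or 1. The count was 7, 8 or 9 without 1 of the NoDox_DMSO libraries, where 1842 to 1888 of all genes fell. It was 22 without the first Dox_DMSO library, where 3436 of 15614 genes fell. Without the first NoDox_Entinostat library it was 23, where 4431 of 15517 genes fell. Without both libraries that stood apart, 26 fell, where 35.7% of all genes fell, and 2 rose (Gnl3 and Nop56), where 26.1% of all genes rose.

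A shift with transcript length ran beside this comparison. In each library, genes above the upper quartile of transcript length were set against genes below the lower quartile, as the difference of their median log2 changes from the mean of NoDox_DMSO. The difference was -0.81, -0.61 and -0.779 in the Dox_Entinostat libraries, -0.799 in the first NoDox_Entinostat and -0.663 in the first Dox_DMSO library, against -0.175 to 0.51 in the other 7 libraries of experiment 2. The 100 most abundant genes also took more of the reads there, 29.2% to 32.8% in Dox_Entinostat and 28.3% and 25.8% in the other 2, against 17.8% to 21.5% elsewhere in experiment 2. For doxycycline in entinostat the 18 member genes with transcripts over 2804 bases had a median of -0.827 (-0.365 over 4970 genes of such length). The 19 shorter ones had -0.263 (0.0591 over 4426 genes of such length). These genes, like those of the quartiles, were limited to a known length and a mean log2 CPM of at least 2. Their medians are therefore not those over all genes tested. The split uses 1 annotated transcript per gene, and Ncl (8202 bases) and Wdr12 (10012 bases) are among the longer by it. For entinostat with doxycycline the medians of longer and shorter members were -2.21 (-0.587 over the 4970 genes) and -1.40 (-0.0937 over the 4426). For entinostat without doxycycline they were -1.31 (-0.189 over the 4970) and -1.18 (-0.183 over the 4426). Over all genes tested, the medians were 0.14 with and 0.07 without doxycycline. With a trend over transcript length and GC content removed, 17 fell for doxycycline in entinostat, where 22.9% of all genes fell. In the same fit 36 fell for entinostat without doxycycline, where 22.6% fell, and all 37 with doxycycline, where 37% fell. Npm1 had -0.70 ± 0.16 (adjusted p = 0.00175) on the log2 scale in that last comparison, against -0.04 without the correction.

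**Figure D5:**
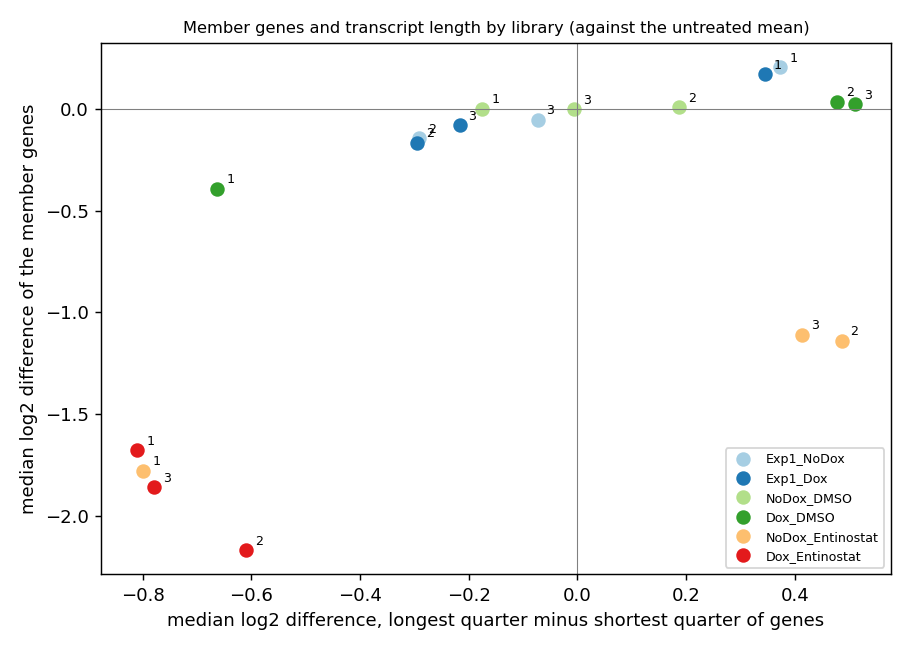
Median log2 difference of the member genes (vertical axis) against the difference between genes above the upper and below the lower quartile of transcript length (horizontal axis), 1 point per library, each against the untreated mean of its experiment (numbers are replicates). The 3 Dox_Entinostat libraries and the first NoDox_Entinostat library lie together at the lower left, and the other 2 NoDox_Entinostat libraries lie at the lower right with medians of -1.14 and -1.11.

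The interaction, which subtracts the change with doxycycline under DMSO from that under entinostat, tests whether the 2 treatments combined differed from the sum of both. For the 37 genes 0 rose and 0 fell (edgeR, adjusted p under 0.05), where 0.166% of all genes rose and 0.106% fell. DESeq2 and limma-voom called 0, and 10 of 37 had an unadjusted p under 0.05. The median was -0.49 over the 37 genes and -0.09 over all genes, with Ncl at -1.35 ± 0.58 and Utp20 at -1.31 ± 0.53 the lowest and Nop56 at 0.48 ± 0.30 the highest. Without the 2 libraries that stood apart, 23 fell, where 30% of all genes fell, and 4 rose (Npm1, Gnl3, Polr1c and Nop56), where 21.5% rose. The number that fell was 13 without the first Dox_DMSO library alone, where 1619 of 15614 genes fell. It was 12 without the first NoDox_Entinostat library alone, where 2133 of 15517 genes fell. With the length and GC trend removed as well, a fit added after the data were seen, 26 fell, where 31.9% of all genes fell. Ncl had -2.05 ± 0.19 (adjusted p = 3.08e-06) without the 2 libraries and -1.64 ± 0.18 (adjusted p = 2.26e-05) with the trend removed too. Npm1 went from 0.67 ± 0.23 (adjusted p = 0.0234) to -0.49 ± 0.16 (adjusted p = 0.0258), so its direction turned with the correction.

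The entinostat and doxycycline comparisons of experiment 2 share libraries, so the values of a gene in them are not independent. Side by side, Ddx10 had -1.17 for entinostat without doxycycline, -2.24 with it, -0.18 for doxycycline in DMSO and -1.25 in entinostat. Gnl3, by contrast, had -1.53, -1.25, -0.01 and 0.28 in the same order.

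A further 146 genes of the pathway that are not among the 37 were counted in the same fits. For entinostat without doxycycline 112 of 145 tested fell and 1 rose, with a median of -0.92, beside the 16.9% of all genes that fell and 30.3% that rose. With doxycycline 116 fell and 3 rose, with a median of -1.09, beside 29.9% and 33.9% of all genes. Doxycycline in DMSO raised 1 and lowered none (all genes 3.77% and 5.53%), and in experiment 1 it raised 2 and lowered 4 of 144 tested (all genes 5.26% and 8.36%). Doxycycline in entinostat raised 3 and lowered 34, where 8.96% of all genes rose and 15.1% fell. The number called in that comparison was 1 or 2 without the second or the third NoDox_Entinostat or the second or the third Dox_Entinostat library, and 80 without the first NoDox_Entinostat library. Of all genes, 228 to 427 rose and 766 to 1094 fell in the fits with 1 or 2. In the fit with 80, of 15517 genes 3152 rose and 4431 fell. By list, without doxycycline 6 of 12 other RNA polymerase I and rDNA transcription genes fell, 10 of 14 snoRNP genes, 37 of 46 small subunit factors, 44 of 50 large subunit factors and 15 of 23 exosome and nuclease genes. Ubtf, the factor that keeps ribosomal DNA open for transcription, was at 284, 292 and 264 CPM in the NoDox_DMSO libraries and at 44.0, 71.5 and 74.7 CPM in the NoDox_Entinostat libraries. Its log2 fold change of -2.14 ± 0.25 (SE, n = 3 against 3; adjusted p = 2.68e-05) was larger than that of any of the 37, and the groups were far apart. Other named examples were Polr1g (listed as Cd3eap), an RNA polymerase I subunit, at -1.72, Rrp7a at -1.35 and Coil, the marker of Cajal bodies, at -0.85. Of the assembly factors, Utp18 and Pwp2 of the small subunit had -1.42 and -2.21, and Ppan and Nifk of the large subunit -1.96 and -1.56. The exosome genes Exosc1 and Dis3 had -1.26 and -1.19, and the adjusted p of these 10 genes were all between 2.64e-06 and 0.000242.

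Myc itself had 176, 255 and 208 CPM in the NoDox_DMSO libraries and 46.9, 84.9 and 81.6 CPM in the NoDox_Entinostat libraries, a log2 fold change of -1.58 ± 0.26 (SE, n = 3 against 3; adjusted p = 0.000321). It stood at 146, 260.1 and 229.5 CPM in the Dox_DMSO libraries and at 39.5, 40.4 and 40.3 CPM in the Dox_Entinostat libraries, -2.40 ± 0.27 (SE, n = 3 against 3; adjusted p = 1.45e-05). For doxycycline Myc had -0.07 (adjusted p = 0.838) in experiment 1, -0.01 (adjusted p = 1) in DMSO and -0.83 (adjusted p = 0.036) in entinostat. Its part in the levels of the 37 genes was not tested.

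Since most of the 37 genes moved together under entinostat, their promoters were searched for short motifs, taken as 250 bases before to 50 after each start (RefSeq, GRCm38.p6). The table held 35 promoters of 31 of the 37 genes and 32851 promoters in all, and every motif was searched on both strands. The E-box CACGTG, a sequence that MYC and other factors bind, was in 6 of the 35 member promoters (17.1%) and in 7.15% of all promoters. GAGGAAGT, a core of PU.1 sites, was in 17.1% (6 promoters of 5 genes) and 3.2%. CCGGAAG, a core of sites of other ETS factors that can share letters with it, was in 31.4% (11 promoters of 10 genes) and 8.86%. The GC-box GGGCGG was in 71.4% and 35.7%, TCTCGCG in 17.1% (6 promoters) and 2.56%, and GCGCATG in 8.57% (3 promoters) and 3.91%. The TATA motif TATAAA was less frequent, in 5.71% against 13.6%, as was CCAAT, in 22.9% against 37.4%. A match is a description of the letters in this window, and binding was not measured here. The set of all promoters was not limited to genes tested here or matched for GC content. Windows of 5 member genes with the E-box are shown with 30 bases each, 5′ to 3′ on the strand of the gene, with the E-box in capitals.
Utp20, chr10:88826765-88826794, minus strand: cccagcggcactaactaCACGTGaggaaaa
Wdr43, chr17:71616220-71616249, plus strand: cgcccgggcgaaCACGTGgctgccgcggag
Ltv1, chr10:13193092-13193121, minus strand: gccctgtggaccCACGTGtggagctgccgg
Tsr1, chr11:74898092-74898121, plus strand: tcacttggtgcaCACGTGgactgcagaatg
Nop2, chr6:125131811-125131840, plus strand: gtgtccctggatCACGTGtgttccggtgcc

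These 5 windows lie near or just past the start, with the E-box beginning between base 18 and base 38 after it except in Nop2, where it begins 60 bases before it. The 5 genes, all among the 33 that fell, had log2 fold changes for entinostat without doxycycline of -1.33 (Utp20), -1.75 (Wdr43), -1.18 (Ltv1), -1.81 (Tsr1) and -1.90 (Nop2). Windows of 4 member genes with GAGGAAGT or its reverse complement are shown next because the hairpin targets Spi1, with that motif in capitals.
Nop14, chr5:34660249-34660278, minus strand: gccaggaagtcGAGGAAGTgtggcctcctg
Wdr43, chr17:71616169-71616198, plus strand: ccctccgccccACTTCCTCcctgcaggccc
Noc2l, chr4:156235970-156235999, plus strand: ggggctcgcggGAGGAAGTcggagggcgca
Noc3l, chr19:38819249-38819278, minus strand: cgccgcccgaaGAGGAAGTcccgcctcccg

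Of the windows shown, Wdr43 has one with each motif. In experiment 1, doxycycline gave these 4 genes log2 fold changes of 0.10 (Nop14), -0.12 (Wdr43), 0.20 (Noc2l) and 0.22 (Noc3l), and none was called without the replicate block.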

How the data were processed

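Polyadenylated RNA was sequenced from 18 libraries in 6 groups of 3. The authors deposited 2 tables of raw read counts per gene, 1 for each experiment. The submitters' processing notes name the mm10 genome and the tools STAR, DESeq2 and bcl2fastq (2.17.1.14), without their roles; the read counter, the annotation and any strand setting are not given in the sources used here. No value in the table of experiment 1 is below 1, against 0 in that of experiment 2, so 1 may have been added to each count; the sources used here do not say.

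The counts were fitted in R 4.3.3 with edgeR 4.0.16 (quasi-likelihood test, TMM scaling, filterByExpr, group means, two-sided), experiment 1 on its 6 libraries (13811 genes) and experiment 2 on its 12 (15051 genes). The Benjamini-Hochberg adjustment ran over every gene tested, and calls were made at 0.05; SEs are of the log2 fold change. CPM use TMM-scaled library totals. Lengths and gene coordinates are those of GENCODE M21 (mm10). DESeq2 1.42.0, limma 3.58.1, other scalings and filters, a replicate block, a length and GC trend and leaving out libraries were alternatives. Same-numbered libraries correlated above 0.1 in all 3 pairs of experiment 1 and of doxycycline in DMSO (0.334, 0.267 and 0.102). For entinostat without doxycycline the correlations were of like size (0.336, 0.315 and 0.0964), the last just under 0.1. They were 0.0846, 0.0285 and 0.0843 for entinostat with doxycycline, and 0.0645, 0.0792 and 0.0718 for doxycycline in entinostat. Dox_DMSO and NoDox_Entinostat libraries of the same number correlated at 0.78, 0.549 and 0.533. The second library of each of these groups correlated with the third of the other at 0.463 and 0.476. The last 2 same-number values are thus largely not particular to a shared number. The tests were checked on simulated data. No 2 libraries of a group agreed within sampling noise. P-values measure the spread between these libraries of 1 cell line.

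Named genes were, in each role group, the 2 with the smallest adjusted p for entinostat without doxycycline, in each other comparison the called genes with the 2 largest changes in each direction, and up to 2 genes of each list of other pathway genes; further names were chosen after their values were seen. The members, lists and rules were chosen with earlier results of these data known. The promoter window of 1 further gene is not reported here.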

Additional observations from a re-analysis of the deposited data

How the results depend on the processing

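None of the 37 genes' values called in the reported fits changed direction under an alternative run, while 3 values that were not called there turned sign and were called with the length and GC trend removed and the 2 libraries that stood apart left out: Npm1 at -0.48 for doxycycline in entinostat (0.16 as reported) and -0.49 for the interaction (0.25, and called at 0.67 without the 2 libraries alone), and Wdr74 at -0.58 for the interaction (0.08). A further 201 of 4979 values changed sign without being called in either fit. The entinostat counts among the 37 genes stayed within 1.5 times. The lowest and highest numbers when each library was left out in turn were 32 and 35 genes lower for entinostat without doxycycline, 34 and 35 with doxycycline, 0 and 23 lower for doxycycline in entinostat, and 0 and 13 lower for the interaction. For the other pathway genes they were 0 and 4 called in experiment 1, 1 and 2 for doxycycline in DMSO, 1 and 80 in entinostat, and 0 and 35 for the interaction. Over all genes, 197 to 567, 325 to 836, 228 to 3152 and 6 to 1018 rose in these fits, in that order. The numbers that fell were 487 to 941, 536 to 991, 766 to 4431 and 3 to 2133. For entinostat, 1917 to 3059 of all genes fell without doxycycline and 3900 to 4849 with it. Where an arm was left with 2 libraries, its spread was taken from all groups. With the replicate block, 4 genes rose and 13 fell in experiment 1 and 67 other pathway genes were called, where 26.1% of all genes rose and 24.7% fell. For doxycycline, 3 other genes were called in DMSO and 70 in entinostat. Of 15051 genes, 887 rose and 1146 fell there in DMSO, and 2691 and 3424 in entinostat. With the length and GC trend removed as well, the experiment 1 counts were 5, 12 and 69, where 3643 of 13811 genes rose and 3640 fell. In DMSO 1 member then fell and 3 other genes were called (all genes: 1283 rose, 1451 fell). In entinostat 78 others were called (all genes: 1983 rose, 4281 fell). The block changed no other call count by over 1.5 times (36 and 35 lower for the entinostat comparisons, 18 for doxycycline in entinostat). With the trend removed alone, 1 gene fell in experiment 1, where 1450 of 13811 genes fell. In that setting 61 other genes were called for doxycycline in entinostat, where 1404 of 15051 genes rose and 3445 fell. Without the 2 libraries that stood apart, the members rising and falling were 5 and 1 for doxycycline in DMSO, 2 and 26 in entinostat, and 4 and 23 for the interaction, with 29, 102 and 93 other genes called. Of all genes, 17.4% rose and 13.9% fell in DMSO, 26.1% and 35.7% in entinostat, and 21.5% and 30% for the interaction. With the trend removed too the members were 3 and 1 in DMSO, 29 lower in entinostat, and 1 and 26 for the interaction, with 24, 102 and 84 others. Of 15478 genes, 2541 rose and 1826 fell in DMSO, 2502 and 6290 in entinostat, and 1771 and 4934 for the interaction. For doxycycline in entinostat, fitting the 2 groups alone gave 8 members and 20 others, and library size alone or no filter on low counts gave 56 others each. In that order, the numbers of all genes rising and falling were 1110 and 1589 of 14749, 1107 and 3149 of 15051, and 1493 and 3328 of 26903. DESeq2 called 11 other genes in experiment 1 and 2 for doxycycline in DMSO, library size alone 2 in DMSO, and a minimum of 1.5-fold left 1 in experiment 1. Of all genes, in the same order, 1138 rose and 1536 fell, 870 and 1070, 488 and 827, and 473 and 866. The cause of these differences was not tested. In simulated counts, a 2-fold fall was recovered in 76% of genes for experiment 1 and in 36% for entinostat without doxycycline, and a fold of 0.667 in 6% and 2%. Each simulated fold was set in 50 genes of 13675 and 14531, while 1154 of 13811 and 2545 of 15051 genes fell in the data. With few changed genes the adjustment is stricter, so these shares may understate recovery in the data. A missing call still does not show that a gene was unchanged.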

Other observations

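Among the 146 further pathway genes, a few moved against the rest. Polr1h (listed as Znrd1), a small RNA polymerase I subunit, had 30.3, 25.1 and 28.1 CPM in the NoDox_DMSO libraries and 47.4, 35.5 and 39.5 CPM in the NoDox_Entinostat libraries. It was the 1 pathway gene that rose with entinostat without doxycycline, with a log2 fold change of 0.55 ± 0.18 (SE, n = 3 against 3; adjusted p = 0.0251), and it rose with doxycycline as well, 1.03 ± 0.18 (SE, n = 3 against 3; adjusted p = 0.000439). The first call was lost without the second or the third NoDox_DMSO or the first NoDox_Entinostat library (adjusted p up to 0.103), and the second held with each of the 12 libraries left out. Taf1b, of the RNA polymerase I selectivity factor, and Nop10, the smallest box H/ACA protein, passed the test in the comparison with doxycycline, at 0.63 (adjusted p = 0.0405) and 0.96 (adjusted p = 0.0393). The difference between the comparisons was not called for either (interaction adjusted p = 0.637 and 0.317), and each call was lost in 7 of the 12 fits that left out 1 library. With the length and GC trend removed, only 1 of the further pathway genes rose in the comparison with doxycycline, against 3 as reported. In that fit 4755 of 15051 genes rose. Nop10 was also high in the 2 libraries that stood apart. It had 292 CPM in the first Dox_DMSO library (others 123 and 120) and 284 CPM in the first NoDox_Entinostat library (others 113 and 132).

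Taf1c, another subunit of the selectivity factor, rose with doxycycline in experiment 1 and in DMSO and fell with entinostat. It lay at 33.5, 27.9 and 26.2 CPM in the Exp1_NoDox libraries and at 55.4, 39.8 and 43.5 CPM in the Exp1_Dox libraries, a log2 fold change of 0.66 ± 0.16 (SE, n = 3 against 3; adjusted p = 0.041). In experiment 2 it had 37.1, 36.3 and 31.6 CPM in the NoDox_DMSO libraries, 53.1, 69.6 and 65.0 CPM in the Dox_DMSO libraries and 14.6, 16.4 and 15.5 CPM in the NoDox_Entinostat libraries. Doxycycline in DMSO gave 0.84 ± 0.15 (SE, n = 3 against 3; adjusted p = 0.00324) and entinostat without doxycycline -1.17 ± 0.16 (SE, n = 3 against 3; adjusted p = 6.57e-05), and none of these groups overlapped. Both calls of experiment 2 held with each library left out, while that of experiment 1 held in 1 of 6 such fits (adjusted p up to 0.168). In entinostat Taf1c was not called for doxycycline, with 19.0, 22.3 and 17.7 CPM in the Dox_Entinostat libraries and 0.34 (adjusted p = 0.113). Bccip, a partner of BRCA2 that also acts in large subunit assembly, rose with doxycycline in experiment 1 (0.56, adjusted p = 0.00751) and in entinostat (0.54, adjusted p = 0.0462). Its value in DMSO was 0.46 (adjusted p = 0.163). Fcf1 and Dimt1, of the small subunit, were the other 2 that rose with doxycycline in entinostat, at 0.96 and 1.13. These rises in entinostat were marginal: Bccip lost its call in 9 and Fcf1 and Dimt1 in 8 each of the 12 fits that left out 1 library, with adjusted p up to 0.179, 0.182 and 0.19. In experiment 1 Bccip lost its call without the third Exp1_NoDox library (adjusted p = 0.0581). For Fcf1 and Dimt1 the first NoDox_Entinostat library stood well above the other 2 of its group, at 204 and 78.1 CPM. These 7 genes were named after their values were seen, and p-values are those of edgeR's quasi-likelihood test adjusted over all genes.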
